A study of Homo sapiens with 8 samples.

Results

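The 10 genes described here, CDH1, EPCAM, CDH2, VIM, FN1, ZEB1, ZEB2, SNAI1, SNAI2 and TWIST1, are the usual markers and regulators of epithelial-mesenchymal transition. They were taken by name, and all 10 were found among the 20162 protein-coding genes of the GENCODE annotation on hg19. For each gene the peaks of 8 lists were collected around the transcription start site (TSS) of its main transcript, up to 2 kb away, and in its locus, which stands for the gene body with 50 kb either side.

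Epithelial-mesenchymal transition is the switch by which epithelial cells give up their cell-cell junctions and gain the shape, matrix contacts and motility of mesenchymal cells. CDH1 (E-cadherin) and EPCAM are adhesion molecules of the epithelial state, while CDH2 (N-cadherin), the intermediate filament protein vimentin (VIM) and the matrix protein fibronectin (FN1) mark the mesenchymal state. The factors ZEB1, ZEB2, SNAI1, SNAI2 and TWIST1 bind E-box sequences and repress epithelial genes, CDH1 among them, and in colorectal carcinoma the programme is known for its links to invasion and drug tolerance.

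The lists came from CUT&Tag, in which an antibody directs a transposase to chromatin carrying a histone mark, in the colon cancer line HCT15. Parental HCT15-Pa cells (labelled as given DMSO) were compared with HCT15-FR cells, a derivative resistant to 5-fluorouracil (5-FU) and labelled with 20 μg/ml of it, to ask how succinylation of lysine 23 of histone H3 (H3K23su) relates to resistance. H3K27ac, the acetylation of lysine 27 that marks active promoters and enhancers, was profiled in the same lines, with 2 libraries per line and mark. HCT15-FR is a single derived line, so resistance and any other property of that line cannot be told apart, and the study's methods describe a drug-free interval before its assays. Nothing in the labels says whether the 2 libraries of a line came from separate cultures, so every spread given here may be technical, and in such bulk libraries more marked cells and more signal per cell cannot be told apart.

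The lists held 65364 to 68365 H3K23su peaks and 70600 to 76676 H3K27ac peaks, and read depth is unknown from them. Peaks covered more of the genome in HCT15-FR in both marks, 39.4 to 40.0 Mb against 33.0 to 33.5 Mb for H3K23su and 46.3 to 46.6 Mb against 38.8 to 39.5 Mb for H3K27ac, a ratio of the means of 1.19 in each. Every comparison of covered length below has to be read beside that ratio. The labelled tissue was checked with 8 colon epithelial genes, of which 3 had a TSS peak in all 4 H3K23su libraries and 5 in all 4 H3K27ac libraries, and none of the 8 was without a TSS peak in every library of a mark. Over all genes a TSS peak in all 4 libraries was found at 54.7% in H3K23su and 59.0% in H3K27ac. Of 11 genes of immune, endothelial, stromal, neural and liver cells, none had a TSS peak in all 4 libraries of either mark and 9 had none at all in each mark. For a single mark the share of all genes with no TSS peak was not taken, so such counts have no background here. A TSS peak of either mark was missing from every library at 25.1% of all genes. The epithelial genes CDH1 and EPCAM had TSS peaks in all 8 libraries.

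At the level of promoters the 10 genes were sorted by the libraries that had a peak in the window. Each peak carries a score, the −log10 p that the authors' peak caller gave it, and a percentile, the share of peaks of the same list with a score at or below it. H3K23su was called inside the 2-kb promoter window in all 4 libraries at 4 of the 10 genes, CDH1, EPCAM, ZEB1 and SNAI1, where the same held for 54.7% of all protein-coding genes. H3K27ac added VIM and made it 5 of 10, against 59.0% of all genes. The promoters of CDH2, ZEB2, TWIST1 and FN1 carried no peak of either mark in any library, a pattern seen at 5061 genes (25.1%), these included. Peaks in all 8 libraries, as at CDH1, EPCAM, ZEB1 and SNAI1, were found at 10859 genes (53.9%). The patterns of VIM and SNAI2 were rarer, and both depended on the width of the window. With a 5-kb window SNAI2 had an H3K27ac peak in all 4 libraries, and with a 1-kb window VIM did not. Only 155 genes (0.769%), VIM included, had H3K23su in both HCT15-FR libraries alone together with H3K27ac in all 4, and 48 genes (0.238%) matched the H3K27ac pattern of SNAI2, which lacked H3K23su and had a peak inside the window in every H3K27ac library other than HCT15-FR replicate 2.

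VIM was the 1 member of 10 whose TSS peak of H3K23su was confined to both HCT15-FR libraries, a class that held 1.86% of all genes, and no member was in the reverse class (1.72%). In H3K27ac no member had a TSS peak confined to either line, classes of 1.42% of all genes for HCT15-FR and 2.19% for HCT15-Pa.

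**Figure D1:**
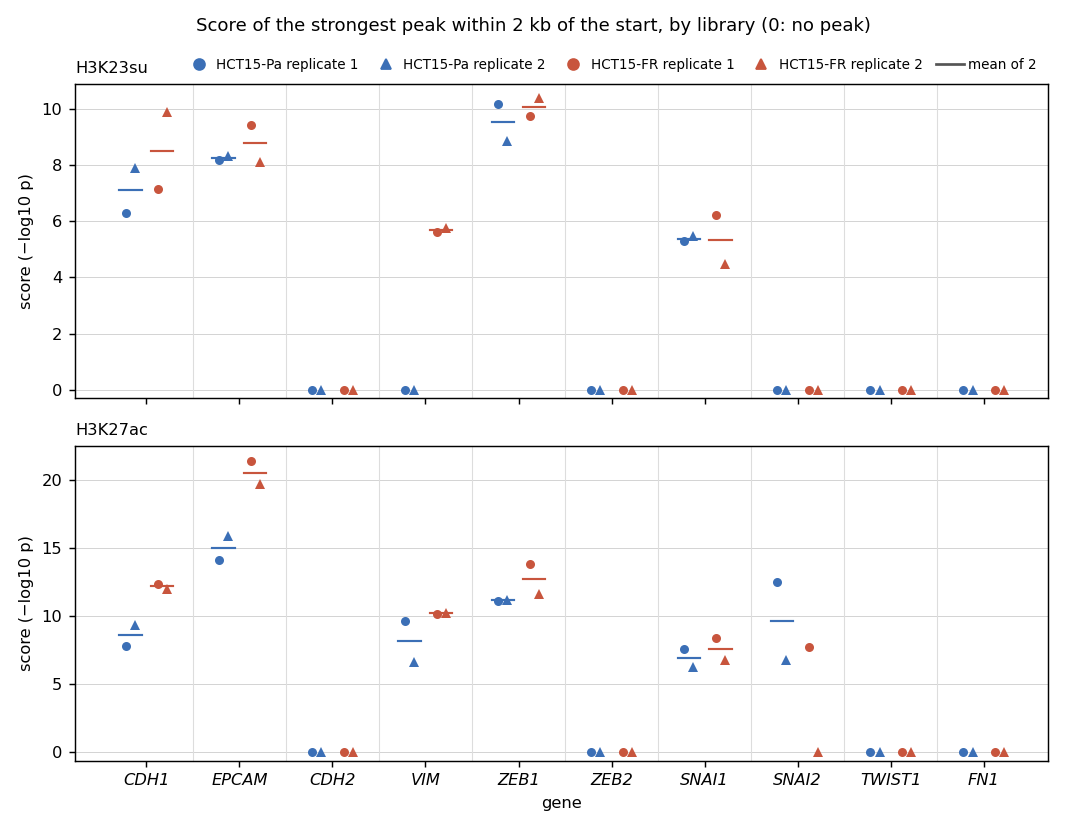
Score (−log10 p, vertical axis) of the strongest peak within 2 kb of the start of each gene, with H3K23su above and H3K27ac below. Circles and triangles are the libraries of replicate 1 and 2, a value of 0 stands for no peak, and bars are means drawn where both libraries of a line had a peak. H3K23su at VIM appears only in HCT15-FR (5.62 and 5.75), whereas H3K27ac at CDH1 and EPCAM lies higher in both HCT15-FR libraries than in both HCT15-Pa libraries.

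The epithelial adhesion genes kept both marks at their promoters in the resistant line. CDH1 (ENSG00000039068, chr16:68771195-68869440, plus strand) encodes E-cadherin, the calcium-dependent adhesion molecule of adherens junctions and the classical target of the E-box repressors. The strongest H3K23su peak at the CDH1 TSS scored 6.30 and 7.91 in HCT15-Pa and 7.13 and 9.88 in HCT15-FR. The lines overlapped, and the means differed by less than the spread within HCT15-FR (difference 1.40, SD 1.14 in HCT15-Pa and 1.95 in HCT15-FR, n = 2 each). For H3K27ac the same promoter scored 7.81 and 9.36 against 12.35 and 11.99. Both HCT15-FR values lay above both HCT15-Pa values, by 3.58 on average, and so did their percentiles, 92.0 and 91.6 against 85.4 and 89.6. With 2 libraries against 2, the two-sided exact permutation test cannot go below p = 0.333, which is the p of that difference, so no difference between the lines can pass a threshold of 0.05 in these lists and separation of the 4 values is given in its place.

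Among promoters with a peak in all 4 libraries, both HCT15-FR scores exceeded both HCT15-Pa scores at 0 of 4 members in H3K23su, against 54.8% of all genes, and at 4 of 5 members in H3K27ac, against 50.3%. The 4 were CDH1, EPCAM, VIM and ZEB1, and at VIM and ZEB1 the percentiles of the lines overlapped. At VIM the HCT15-Pa scores came from an interval near 2 kb inside the gene, and the HCT15-FR scores from another just past the TSS. No member lay below, the reverse order being seen at 4.95% of all genes in H3K23su and 8.5% in H3K27ac. Over all such genes the median difference was 1.08 in H3K23su and 1.28 in H3K27ac, so scores were higher in HCT15-FR at promoters in general.

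EPCAM (ENSG00000119888, chr2:47572297-47614740, plus strand) encodes an epithelial cell adhesion glycoprotein and is the surface marker most used to sort carcinoma cells. Its main transcript starts at position 47596450, inside the annotated gene. It had the highest H3K27ac promoter scores of the 10 genes in every library, 14.14 and 15.89 in HCT15-Pa and 21.40 and 19.66 in HCT15-FR. The difference was 5.52 with SDs of 1.24 and 1.23, and the percentiles were 97.0 and 97.9 against 98.7 and 98.3. For H3K23su the scores were 8.18 and 8.32 against 9.43 and 8.12, and the lines overlapped.

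Covered length was also taken over the whole CDH1 locus. H3K23su peaks covered 6430 and 6765 bp of its 198-kb locus in HCT15-Pa and 11403 and 10806 bp in HCT15-FR, a difference of 4507 bp in the means (SD 237 and 422 bp) and a ratio of 1.68. H3K27ac peaks covered 10152 and 8112 bp against 11597 and 12954 bp, a difference of 3143.5 bp (SD 1443 and 960 bp) and a ratio of 1.34. Both HCT15-FR libraries lay above both HCT15-Pa libraries in each mark. Once each library was scaled to its own total covered length, the H3K23su values stayed apart, with a difference of 2965 bp, and the H3K27ac values overlapped, with 1335 bp.

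For each mark, touching or overlapping peaks of its 4 libraries were merged into regions, and a region found in both libraries of HCT15-FR and neither of HCT15-Pa is called FR-only, with Pa-only as the reverse and shared for all 4. The CDH1 locus held 9 shared, 3 FR-only and no Pa-only H3K23su region, and 11 shared, 2 FR-only and no Pa-only H3K27ac region. The shared regions included the promoter, an interval 5.08 kb upstream and several in the long introns, where 23.9 kb downstream of the TSS H3K27ac scored 5.65 and 8.61 in HCT15-Pa and 13.99 and 13.21 in HCT15-FR. The FR-only H3K23su region whose weaker peak ranked highest lay at chr16:68813567-68814090, in an intron 42.6 kb from the TSS, with scores of 4.23 and 4.38. The corresponding H3K27ac region, chr16:68786396-68786787, lay in an intron 15.4 kb from the TSS and scored 3.53 and 4.57. In the upstream part of the locus, inside the neighbouring gene CDH3 (P-cadherin), FR-only regions of both marks overlapped 40.6 kb from the TSS, with H3K23su scores of 3.26 and 3.17, at the foot of their lists, and H3K27ac scores of 3.11 and 4.57. The shared region at the start of TANGO6 lies within the downstream flank and was counted in the covered length of CDH1.

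H3K23su covered 6418 and 6959 bp of the EPCAM locus in HCT15-Pa and 8813 and 8070 bp in HCT15-FR. For H3K27ac the lengths were 7966 and 7725 bp against 9492 and 9926 bp. The ratios of the means, 1.26 and 1.24, were close to the 1.19 of the whole lists, and with each library scaled to its total the H3K23su values overlapped. EPCAM was also 1 of the 2 members with a Pa-only region, and the only one of the epithelial pair. H3K23su scored 4.34 and 5.60 in HCT15-Pa at chr2:47567357-47568187, 28.7 kb upstream of the TSS inside the non-coding gene EPCAM-DT, and a Pa-only H3K27ac region, chr2:47567267-47567570 with scores of 3.71 and 5.04, overlapped it. It had 1 FR-only region in each mark, and that of H3K23su lay just past the 3′ end at chr2:47614839-47615560 with scores of 4.56 and 3.55, where H3K27ac was shared.

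**Figure D2:**
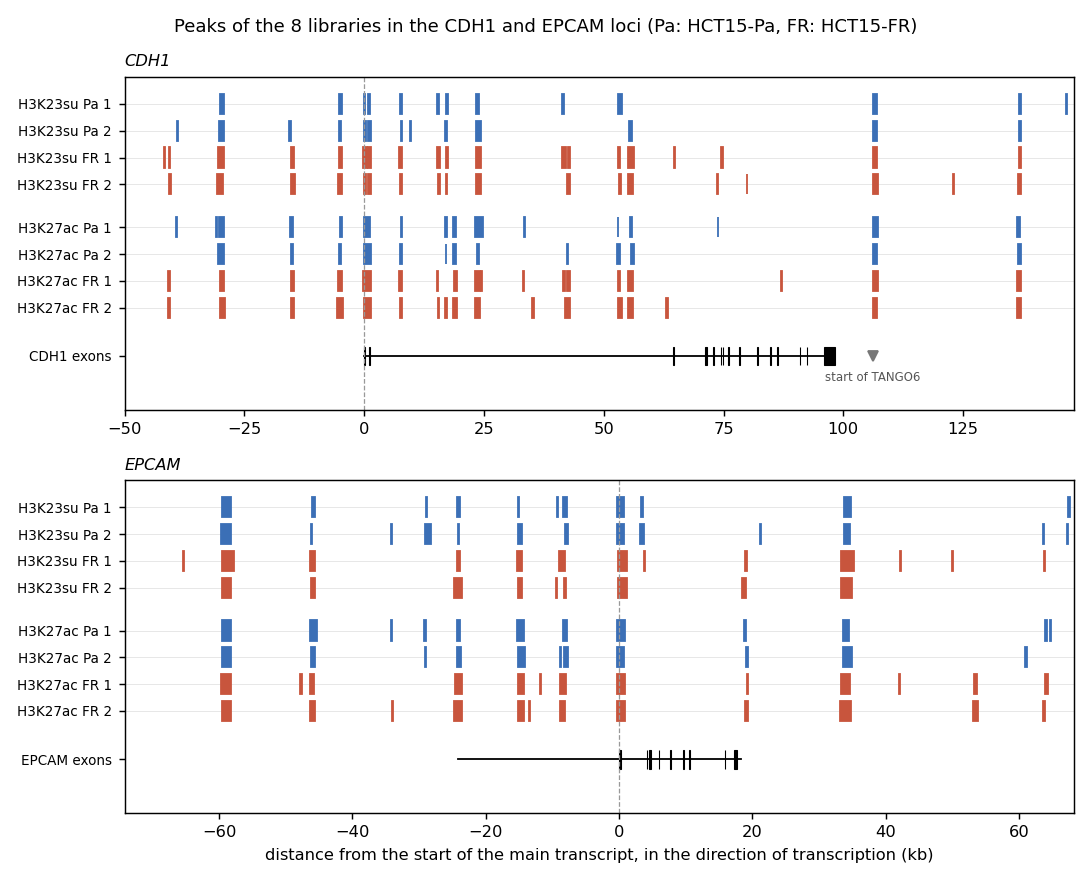
Peaks of each of the 8 libraries (rows) in the CDH1 and EPCAM loci against the distance from the start of the main transcript in kb, with HCT15-Pa in blue and HCT15-FR in red and exons in black. Bars have outlines of fixed width so that narrow peaks can be seen. The intervals at the start of each gene recur in all rows, and the EPCAM interval 28.7 kb upstream is present only in the blue rows.

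The mesenchymal structural genes did not behave as a group. CDH2 (ENSG00000170558, chr18:25512843-25757910, minus strand) encodes N-cadherin, the cadherin of neural and mesenchymal cells that replaces E-cadherin when the transition is complete. None of the 4 HCT15-Pa libraries had a single peak in its 345-kb locus. H3K23su peaks covered 3736 and 2920 bp there in HCT15-FR, and H3K27ac peaks 5406 and 4740 bp. Of the 20162 genes, 987 (4.90%) had no peak of either mark in HCT15-Pa, and 46 of these had peaks of both marks in all 4 HCT15-FR libraries. Summed over the marks, only 2 of the 46, CDH2 being 1 of them, had a covered length in HCT15-FR at or above that of CDH2. That count was made after the values of CDH2 were seen. The reverse, peaks of both marks in all HCT15-Pa and no HCT15-FR library, was found at 107 loci. Chromosome 18 as a whole had ratios of 1.08 in H3K23su and 1.13 in H3K27ac, below those of the whole lists.

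**Figure D3:**
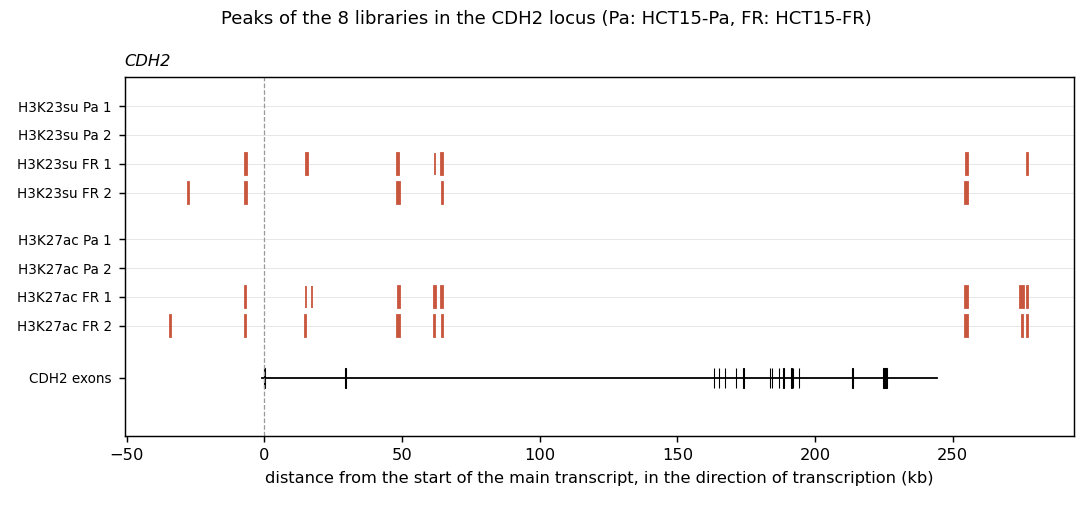
Peaks of the 8 libraries (rows) in the CDH2 locus against the distance from the start of the main transcript in kb, drawn as in the map of CDH1 and EPCAM. All 4 HCT15-Pa rows are empty, the HCT15-FR rows hold 7 and 5 H3K23su peaks and 9 H3K27ac peaks each, and none lies at the start itself.

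The CDH2 promoter remained without a peak in HCT15-FR. Its peaks lay elsewhere, in 4 FR-only H3K23su regions and 7 FR-only H3K27ac regions, and each of the 4 H3K23su regions overlapped 1 of the 7. These places are numbered 1 to 4 in the direction of transcription. The central 300 bases common to both marks are shown for 3 of them, because no other member had as many regions called in HCT15-FR alone in both marks, from GRCh37 and 5′ to 3′ on the strand of CDH2. Capitals mark matches to TGANTCA, the core bound by the AP-1 factors of the FOS and JUN families, which reads the same on both strands.

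CDH2 region 1, chr18:25763673-25763972, minus strand: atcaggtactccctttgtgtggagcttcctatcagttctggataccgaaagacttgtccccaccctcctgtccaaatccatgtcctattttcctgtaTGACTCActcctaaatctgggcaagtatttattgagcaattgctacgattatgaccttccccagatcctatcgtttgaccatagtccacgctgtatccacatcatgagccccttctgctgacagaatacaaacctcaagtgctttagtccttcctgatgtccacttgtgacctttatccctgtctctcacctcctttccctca
CDH2 region 3, chr18:25692332-25692631, minus strand: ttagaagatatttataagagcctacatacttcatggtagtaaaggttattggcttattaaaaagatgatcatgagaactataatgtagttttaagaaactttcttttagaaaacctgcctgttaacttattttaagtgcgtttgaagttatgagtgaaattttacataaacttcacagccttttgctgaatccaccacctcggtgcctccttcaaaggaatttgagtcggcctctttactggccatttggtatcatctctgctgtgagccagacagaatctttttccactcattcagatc
CDH2 region 4, chr18:25501815-25502114, minus strand: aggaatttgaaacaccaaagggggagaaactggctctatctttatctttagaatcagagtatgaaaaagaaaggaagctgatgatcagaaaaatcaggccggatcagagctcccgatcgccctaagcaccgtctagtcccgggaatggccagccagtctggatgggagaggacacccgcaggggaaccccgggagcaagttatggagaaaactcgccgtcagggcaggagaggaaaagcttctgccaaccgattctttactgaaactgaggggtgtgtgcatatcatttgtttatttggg

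Region 4 was the strongest. Its H3K23su region, chr18:25501417-25502511, lay 255 kb from the TSS and downstream of the gene, inside the non-coding record ENSG00000227279, and scored 9.24 and 7.06, with the weaker peak at percentile 86.8 of its list. The H3K27ac region there, chr18:25501418-25502649, scored 10.79 and 11.89, with the weaker peak at percentile 89.0. Region 1, 6.68 kb upstream of the TSS, scored 5.22 and 6.11 in H3K23su and 3.53 and 4.75 in H3K27ac. Regions 2 and 3 lay in introns 48.7 and 64.6 kb from the TSS. Region 2 scored 4.83 and 4.19 in H3K23su and 8.79 and 8.99 in H3K27ac, and region 3 scored 4.20 and 5.76 and then 4.05 and 4.43. In regions 1 to 3 the weaker H3K23su peak stood at percentiles from 37.5 to 65.5 of its list. The weaker H3K27ac peak stood at percentile 16.7 in region 1, 83.1 in region 2 and 34.0 in region 3.

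Region 1 held 1 TGANTCA match, beginning at base 98 of the printed window, and regions 3 and 4 held none. A match is a stretch of letters and not a measured binding site. Among all 51591 windows made in this way from overlapping regions of the 2 marks, 16.9% held a match, against 27.2% of the 2954 windows that were FR-only in both marks, 14.1% of the 1012 that were Pa-only in both and 14.3% of the 23431 that were shared in both. None of the 3 printed windows held the E-box form CACCTG, or CAGGTG as its other strand reads, which occurred in 25.7% of the FR-only windows.

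**Figure D4:**
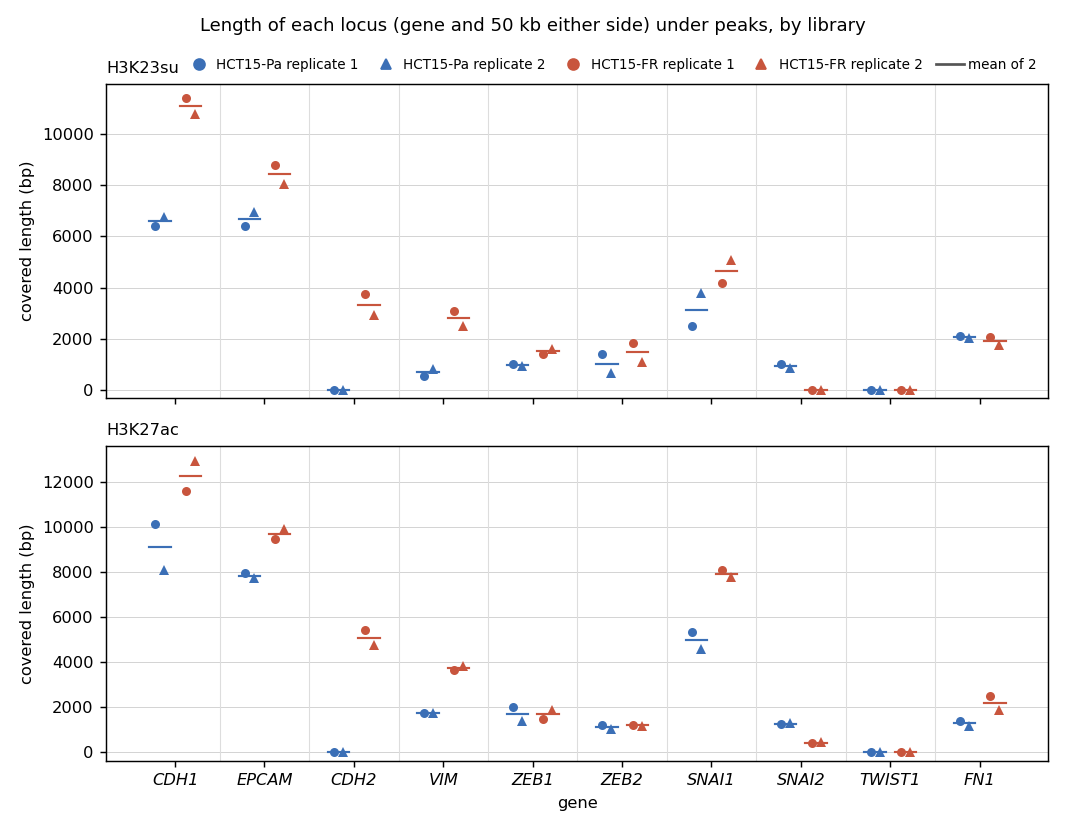
Length in bp of each locus under peaks (vertical axis) for the 10 genes, with H3K23su above and H3K27ac below, circles and triangles for the libraries of replicate 1 and 2 and bars for the means of 2. CDH2 is at 0 in every HCT15-Pa library, SNAI2 lies lower in HCT15-FR in both marks, and TWIST1 is at 0 throughout.

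VIM (ENSG00000026025, chr10:17270240-17279592, plus strand) encodes vimentin, the type III intermediate filament of mesenchymal cells. The 250 bases before its TSS are shown because an H3K23su region called in the resistant line alone begins just past them, inside the gene. They hold neither CACCTG nor CAGGTG.

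VIM, chr10:17269990-17270239, plus strand: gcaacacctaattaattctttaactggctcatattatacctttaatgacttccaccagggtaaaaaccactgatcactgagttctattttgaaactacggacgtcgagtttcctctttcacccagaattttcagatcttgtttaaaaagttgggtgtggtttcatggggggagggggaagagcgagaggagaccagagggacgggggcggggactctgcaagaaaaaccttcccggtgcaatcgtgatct

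At chr10:17270306-17271220, just inside the gene and under the antisense gene VIM-AS1, H3K23su scored 5.62 and 5.75 in HCT15-FR, with the weaker peak at percentile 72.4, and was not called in HCT15-Pa. H3K27ac at that place was called in HCT15-Pa replicate 2 alone of the parental libraries, at 4.22, and scored 10.17 and 10.25 in HCT15-FR. A pair of further FR-only H3K23su regions lay 2.04 kb inside the gene, with scores of 4.50 and 4.07, and 11.6 kb upstream, with 4.53 and 3.84. The upstream interval carried H3K27ac at 13.53 and 14.36 in HCT15-FR, against 4.53 in HCT15-Pa replicate 1 and no peak in replicate 2. The interval near 2 kb inside the gene differed from the others, since H3K27ac was shared there with scores of 9.63 and 6.63 against 9.05 and 9.06. That interval gave both HCT15-Pa libraries an H3K27ac peak in the promoter window, and the promoter percentiles of H3K27ac, 90.9 and 79.0 against 87.5 and 87.8, overlapped although the scores did not.

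Over the 109-kb VIM locus H3K23su covered 552 and 801 bp in HCT15-Pa and 3093 and 2498 bp in HCT15-FR, a ratio of 4.13 (difference 2119 bp, SD 176 and 421 bp). In HCT15-Pa all of it lay at the start of TRDMT1, a neighbour whose start falls in the upstream flank. H3K27ac covered 1758 and 1751 bp against 3638 and 3835 bp, a ratio of 2.13 (difference 1982 bp, SD 4.95 and 139 bp). After scaling to the library totals the lines stayed apart in the same direction in both marks at VIM, CDH2 and SNAI2.

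FN1 (ENSG00000115414, chr2:216225163-216300796, minus strand), which encodes the matrix glycoprotein fibronectin, gave no such pattern. H3K23su covered 2118 and 2044 bp of its locus in HCT15-Pa and 2077 and 1763 bp in HCT15-FR, and the lines overlapped. Most of that length was at the start of ATIC in the downstream flank, where H3K23su scored 6.42 and 7.60 against 9.72 and 9.39. H3K27ac covered 1370 and 1177 bp against 2478 and 1880 bp, a difference of 905.5 bp. Its 1 FR-only region was an H3K27ac interval in an intron, chr2:216284588-216284910, 16.0 kb from the TSS, with scores of 4.25 and 6.36 and no H3K23su peak. Scaled to the library totals, FN1 lay lower in HCT15-FR in H3K23su, by 519 bp, and higher in H3K27ac, by 617 bp.

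**Figure D5:**
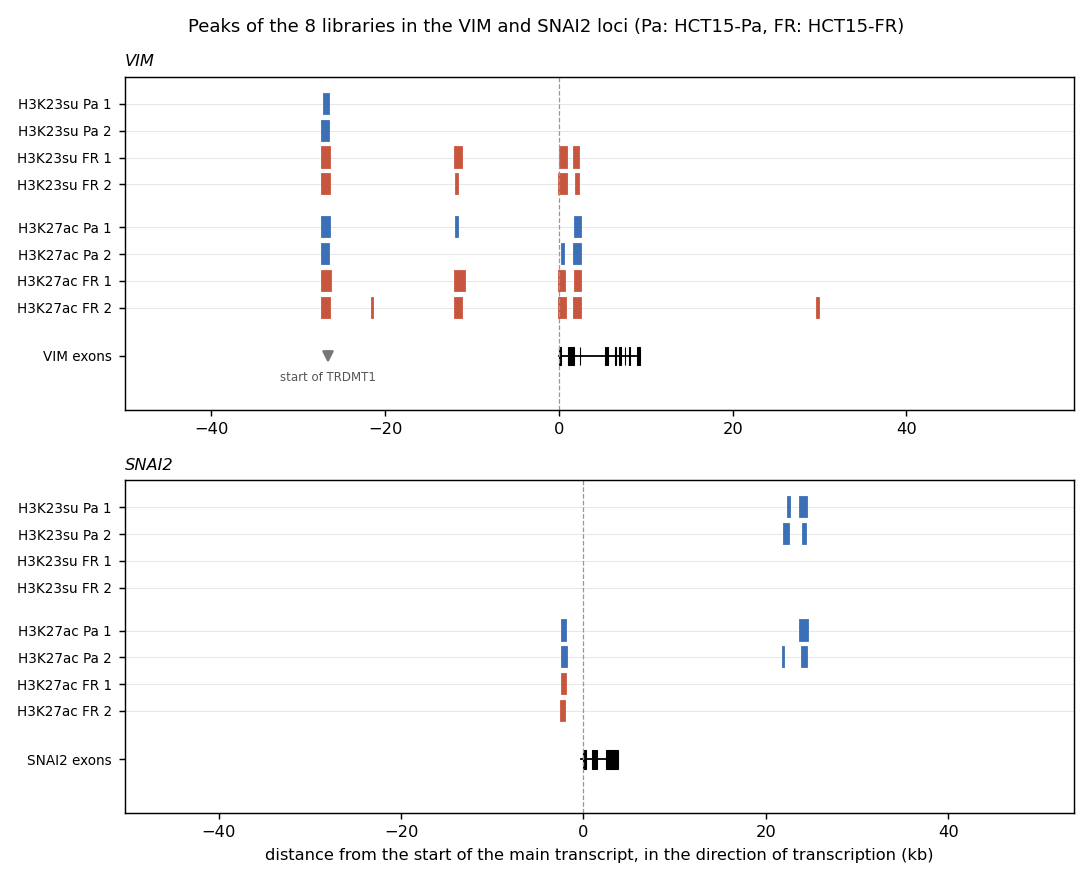
Peaks of the 8 libraries (rows) in the VIM and SNAI2 loci against the distance from the start of the main transcript in kb, drawn as in the map of CDH1 and EPCAM. At VIM the H3K23su bars near the start and 11.6 kb upstream occur only in HCT15-FR, while at SNAI2 the bars near 22.3 and 24.1 kb downstream occur only in HCT15-Pa.

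Of the repressors, SNAI2 (ENSG00000019549, chr8:49830157-49834299, minus strand), which encodes SLUG, was the 1 member with less marked chromatin in HCT15-FR. H3K23su covered 989 and 853 bp of its locus in HCT15-Pa and nothing in HCT15-FR. H3K27ac covered 1239 and 1296 bp against 385 and 449 bp, a ratio of 0.329 (difference −850.5 bp, SD 40.3 and 45.3 bp). Both H3K23su regions were Pa-only and lay downstream of the gene, 24.1 kb from the TSS at chr8:49809495-49810268 with scores of 4.70 and 5.48, and 22.3 kb from it at chr8:49811381-49811988 with 5.30 and 3.96. The first overlapped the 1 Pa-only H3K27ac region of the locus, chr8:49809416-49810279, which scored 4.75 and 4.21. The interval nearest the promoter, 2.15 kb upstream of the TSS, carried H3K27ac in all 4 libraries with scores of 12.49 and 6.79 against 7.73 and 5.84, and its edge in HCT15-FR replicate 2 fell outside the 2-kb window. Without the flanks SNAI2 had no H3K23su peak in either line, so that difference rests on the downstream intervals.

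SNAI1 (ENSG00000124216, chr20:48599517-48605423, plus strand), which encodes SNAIL, had a promoter marked in all 8 libraries and overlapping scores in both marks. H3K23su scored 5.28 and 5.46 in HCT15-Pa and 6.21 and 4.46 in HCT15-FR, and H3K27ac 7.60 and 6.27 against 8.35 and 6.77. The covered length of its locus was 2481 and 3773 bp in HCT15-Pa and 4176 and 5098 bp in HCT15-FR for H3K23su, and 5349 and 4577 bp against 8081 and 7767 bp for H3K27ac. After scaling the H3K23su values overlapped, and the H3K27ac values stayed apart with a difference of 1879 bp. Most of that length was in the flanks, which hold the start of RNF114. An FR-only H3K23su region lay 51.9 kb downstream of the TSS at chr20:48650938-48651801 with scores of 5.19 and 5.61, where H3K27ac was shared and scored 3.70 and 4.55 against 8.69 and 8.36. The leading FR-only H3K27ac region, chr20:48585359-48585999, lay 13.8 kb upstream with scores of 4.80 and 4.28.

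ZEB1 (ENSG00000148516, chr10:31607424-31818742, plus strand) encodes a zinc finger repressor that is held down in epithelial cells by the miR-200 family. The 250 bases before its TSS are shown, with CACCTG and CAGGTG in capitals, because this promoter carried peaks of both marks in every library.

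ZEB1, chr10:31607895-31608144, plus strand: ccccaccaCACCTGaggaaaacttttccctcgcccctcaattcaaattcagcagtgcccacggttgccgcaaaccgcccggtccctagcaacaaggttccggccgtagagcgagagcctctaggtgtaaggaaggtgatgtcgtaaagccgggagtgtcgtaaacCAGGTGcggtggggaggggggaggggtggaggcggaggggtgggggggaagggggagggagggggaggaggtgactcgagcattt

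The 2 matches began 242 and 85 bases before the TSS, and of all 20162 promoters taken in this way 17.4% held at least 1 match on either strand. The promoter, which lies beside the antisense gene ZEB1-AS1, had the highest H3K23su promoter score of the 10 genes in all 4 libraries, with 10.17 and 8.86 in HCT15-Pa and 9.73 and 10.37 in HCT15-FR, percentiles of 96.5 to 98.8. H3K27ac scored 11.09 and 11.19 against 13.85 and 11.63. The scores did not overlap in H3K27ac, but the percentiles did, 93.6 and 93.3 against 94.2 and 91.0. Its 311-kb locus held little else. An FR-only H3K23su region with scores of 4.17 and 3.89 lay in an intron 107 kb from the TSS, at chr10:31715334-31715798, with no H3K27ac peak. Covered length was 1003 and 925 bp against 1392 and 1612 bp in H3K23su and 2009 and 1360 bp against 1475 and 1891 bp in H3K27ac.

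ZEB2 (ENSG00000169554, chr2:145121931-145278624, minus strand), the paralogue of ZEB1, had no peak of either mark in its promoter or body in any library. What its locus held, 637 to 1820 bp of H3K23su and 1023 to 1216 bp of H3K27ac, lay in the downstream flank, chiefly at the start of GTDC1, and the lines overlapped in both marks. TWIST1 (ENSG00000122691, chr7:19060614-19157259, minus strand), a basic helix-loop-helix factor, had no peak in its 197-kb locus in any of the 8 libraries. Loci of this kind numbered 805 (3.99%), TWIST1 included. The main TWIST1 transcript, chr7:19155091-19157259, is a small part of its annotated gene of 96.6 kb. A missing peak says that no interval passed the caller's threshold in that list, not that the mark is absent.

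Counted over the 10 genes, covered length was higher in both HCT15-FR libraries than in both HCT15-Pa libraries at 6 members in H3K23su, CDH1, EPCAM, CDH2, VIM, ZEB1 and SNAI1, against 48.1% of all genes. In H3K27ac it was higher at 6, with FN1 in the place of ZEB1, against 48.2%. SNAI2 was the 1 member that was lower in each mark, against 12.2% and 13.1% of all genes. The median difference over the members was 1024 bp in H3K23su and 1384.5 bp in H3K27ac, beside 541 and 509.5 bp over all genes. With libraries scaled to their totals, 4 members were higher in H3K23su, CDH1, CDH2, VIM and ZEB1, against 27.5% of all genes, and 2 were lower, SNAI2 and FN1, against 24.3%. For scaled H3K27ac 5 were higher, EPCAM, CDH2, VIM, SNAI1 and FN1, against 24.1%, and 2 were lower, SNAI2 and ZEB2, against 30.8%.

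FR-only H3K23su regions occurred at 6 of the 10 loci, where 48.6% of all loci had 1 or more, and FR-only H3K27ac regions at 5, where 53.4% had. Pa-only regions occurred at EPCAM and SNAI2 in both marks, 2 of 10, beside 35.6% of all loci in H3K23su and 33.9% in H3K27ac. Beside these shares the counts are given as a description only. With the strongest 50% of each list the Pa-only call of EPCAM ended in both marks and that of SNAI2 in H3K27ac, and the H3K23su call of SNAI2 ended when a peak had to cover 50% of a region. Pa-only counts rested on both HCT15-Pa libraries, and were 5 in H3K23su and 4 in H3K27ac without HCT15-Pa replicate 1, 6 and 5 without HCT15-Pa replicate 2, and 3 each without HCT15-FR replicate 2. Without HCT15-FR replicate 1 they were 3 and 2. The members held 13 FR-only regions of each mark, 4 Pa-only H3K23su regions and 2 Pa-only H3K27ac regions.

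Overlapping pairs of FR-only regions were found at 2 members, CDH2 with 4 pairs and CDH1 with 1, against 21.1% of all loci with at least 1 pair, and overlapping Pa-only pairs at EPCAM and SNAI2, with 1 pair each, against 8.38%. At the members, 5 of 13 FR-only H3K23su regions met an FR-only H3K27ac region, 4 of them at CDH2. Over the whole lists that held for 35.8% of 9735. Of the 13 FR-only H3K27ac regions, 5 met an FR-only H3K23su region, against 28.5% of 12147. For Pa-only regions it was 2 of 4 in H3K23su, against 19.8% of 6143, and 2 of 2 in H3K27ac, against 20.0% of 6066.

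Other genes of the epithelial programme, 20 junction, keratin and regulator genes, had a TSS peak in all 4 libraries at 14 in H3K23su and 16 in H3K27ac, beside 54.7% and 59.0% of all genes. GRHL2, a grainyhead factor that maintains CDH1 expression, was 1 of those that did not. Its H3K23su TSS peak was called in both HCT15-Pa libraries, at 7.46 and 7.38, and in neither HCT15-FR library, and its H3K27ac scores were 16.99 and 10.62 in HCT15-Pa, 3.71 in HCT15-FR replicate 1 and no peak in replicate 2. The related GRHL1 had H3K23su TSS peaks in HCT15-FR alone, at 4.30 and 3.71, while its H3K27ac peak was called in both HCT15-Pa libraries and in HCT15-FR replicate 1.

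Of 30 further mesenchymal genes, 10 had a TSS peak in all 4 libraries in H3K23su and 13 in H3K27ac, against 54.7% and 59.0% of all genes. A TSS peak was missing from every library at 13 in H3K23su and 10 in H3K27ac. The share of all genes without a TSS peak was not taken for each mark, so these counts have no background. TGFB2, a ligand that induces the transition, had TSS peaks in both HCT15-Pa libraries and neither HCT15-FR library in both marks, with H3K23su scores of 5.29 and 5.75 and H3K27ac scores of 4.65 and 5.47. PRRX1, a homeobox factor, showed the same in H3K27ac, with 4.60 and 4.18. So did TGFBI, a matrix protein induced by TGF-β, with 4.22 and 3.08, the latter at percentile 0.799 of its list. SPARC, a matrix protein, went the other way in H3K23su, with 3.50 and 3.59 in HCT15-FR alone, at percentiles 9.95 and 13.8. At 4 of the 5 miR-200 family loci found in the annotation a peak fell within 2 kb of the start in all 4 libraries of each mark. That start is the 5′ end of the annotated microRNA record, which need not be the promoter of the primary transcript. The shares over all genes cover protein-coding genes only, so this count has no background. The windows of MIR200A, MIR200B and MIR429 overlap, as do those of MIR200C and MIR141, so these are 2 clusters rather than 5 loci. MIR200C and MIR141 shared H3K27ac scores of 10.89 and 11.16 in HCT15-Pa and 16.80 and 14.89 in HCT15-FR. At MIR429 an H3K23su peak fell in the window in HCT15-FR alone, at 4.32 and 4.68. In the overlapping windows of MIR200A and MIR200B, however, all 4 libraries had an H3K23su peak. Those scored 6.01 and 4.23 in HCT15-Pa and 4.90 and 4.68 in HCT15-FR.

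Among the colon epithelial genes used to check the tissue, CDX1, an intestinal homeobox factor, had TSS peaks in HCT15-FR alone in both marks, with H3K23su scores of 5.56 and 4.21 and H3K27ac scores of 6.39 and 7.33. CDH17, the intestinal cadherin, did so in H3K23su with 4.42 and 5.05. KRT20, an intestinal keratin, did so in H3K27ac with 3.50 and 3.82, at percentiles 15.5 and 27.1 of their lists.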

How the data were processed

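All 8 deposited peak lists were analysed, 1 for each CUT&Tag library, grouped by mark and line from the labels. The authors aligned reads with Bowtie2 to hg19, handled them with SAMtools and called peaks with MACS2 in each library separately, narrow for H3K23su and broad for H3K27ac, and annotated them with HOMER 4.10, per the study's methods and the labels. Widths are therefore not compared between marks. The single value of each deposited peak is −log10 of the caller's p-value. It rises with read depth, which the lists do not give, so percentiles within a list are printed beside some of the scores and scores without them are not corrected for depth. The precision of a value rests on the spread between 2 libraries. The lists hold no read counts and no count model was used.

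Genes were taken from GENCODE release 44 mapped to GRCh37, the same assembly as hg19, with the TSS of the MANE Select or canonical transcript. Peaks of a mark that share or touch at least 1 base were merged into regions, and regions, covered bases and the strongest TSS peak were computed for all 20162 protein-coding genes with Python 3.11.15, numpy 2.4.6 and pandas 2.3.3, after the scripts were tested on simulated data. Differences were tested with a two-sided exact permutation test over libraries. Sequences were read with pysam 0.24.0. Every member was named. From the other lists genes were named where TSS peaks occurred in both libraries of 1 line and neither of the other, and regions where, per member, mark and class, the weaker peak ranked highest. MIR200C, MIR141, MIR200A and MIR200B, further regions of CDH1, CDH2, EPCAM, VIM, SNAI1, SNAI2 and FN1 and the counts of emptied and filled loci were chosen after their values were seen. The members and gene lists were chosen with earlier results of these data known. Of the listed genes, 2, MIR205 and PECAM1, had no matching symbol in the annotation and were not analysed here. Some sequences and a neighbouring gene are not reported here.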

Additional observations from a re-analysis of the deposited data

How the results depend on the processing

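Each setting was changed singly. The number of members with a TSS peak in all 4 libraries stayed within 1.5 times its value under every alternative tried for it. FR-only regions were found at 3 members in each mark when only the strongest 50% of each list was used, CDH2, VIM and SNAI1 in H3K23su and CDH2, VIM and FN1 in H3K27ac, of which VIM was not called in H3K27ac with all peaks, and at 3 in H3K27ac when the flanks were dropped. Pa-only counts were the least stable. In H3K23su they went from 2 to 4 when a peak had to cover 50% of a region, SNAI2 then being lost, to 4 with 100-kb flanks and to 0 without flanks, and over the 4 runs that each left out a library they ranged from 3 to 6. With the strongest 50% the H3K23su count stayed at 2, with CDH1 in the place of EPCAM. In H3K27ac they were 1 with the strongest 50%, SNAI1, with EPCAM and SNAI2 lost, 4 with 100-kb flanks, 0 without flanks and 2 to 5 over the runs without a library. A region needs only 1 remaining library to count when its partner is left out, which raises such counts by construction. Members with a lower covered length in both HCT15-FR libraries numbered 1 in each mark and became 2 in each after scaling to the library totals, 0 in each without flanks, 2 in H3K27ac with 100-kb flanks, and 1 to 2 in each mark over the runs without a library, FN1 joining in H3K23su without HCT15-Pa replicate 2 or HCT15-FR replicate 1 and ZEB1 in H3K27ac without HCT15-Pa replicate 2. The H3K23su difference of ZEB1 turned from 538 to −391.5 bp with 100-kb flanks, and the cause was not tested. Of the 14 covered-length differences without overlap, 12 kept their sign in all 11 alternatives and 6 kept the lines apart in all of them, those of CDH2 and VIM in both marks, CDH1 in H3K23su and SNAI1 in H3K27ac. Scaling to the library totals was chosen after seeing the data.

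Replicate numbers 1 and 2 are only shared numbers. Over all genes the correlation between the lines of the difference between libraries 1 and 2 was 0.018 in H3K23su and −0.012 in H3K27ac. With the replicate block, a sign-flip test within the number, the difference of 3328 bp at CDH2 in H3K23su had an exact p = 0.5, the smallest that 2 pairs allow, so the block changed no call.

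Peak presence depends on depth and on the caller's threshold, neither of which can be examined here, and many FR-only and Pa-only peaks were weak in their lists. Starts of other genes fall within 7 of the 10 loci, and peaks there count toward covered length.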
